A study of Homo sapiens with 9 samples.

Results

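The comparison described here is of A549 cells grown with GSK591 against A549 cells grown with DMSO. It takes 6 of the 9 RNA sequencing libraries of the series, 3 for each group, and all 18292 of 51796 gene identifiers that had enough counts to be tested. A549 is an established epithelial line from a human lung adenocarcinoma. GSK591, an inhibitor of the arginine methyltransferase PRMT5, was given at 1 µM for 7 days, and the control cells received DMSO for the same 7 days. A further group of 3 libraries, treated with 1 µM MS023 for 7 days, is used only for contrast. MS023 inhibits the type I arginine methyltransferases, which place the asymmetric form of dimethylarginine. The design asks how gene expression of this line responds to prolonged inhibition of PRMT5.

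Plates for DMSO were seeded with 0.2 times 1e5 cells and plates for either inhibitor with 0.4 times 1e5 cells. In the comparison with DMSO the effect of the seeded number cannot be told apart from that of GSK591, whereas GSK591 and MS023 plates were seeded alike. The labels describe RNA taken in triplicate from 1 cell line and name no separate cultures. Spread between libraries, on which each p-value rests, may therefore be technical. Library totals ran from 31398075 to 47387808 counts. DMSO replicate 1 stood apart from the other DMSO libraries on the second principal component of the 6 libraries (36.9 against -17.4 and -14.3, with 14.7% of the variance), while the first component (68.4%) separated the groups. GSK591 replicate 3 was high in mitochondrial rRNA: MT-RNR2 stood at 536 CPM (counts scaled to library size) in it and at 0.26 to 10.1 CPM in the other 5 libraries. Without both of these libraries 10564 genes were called, against 11443 with them. As bulk RNA was sequenced, a change in the share of cells in a given state and a change of RNA per cell cannot be told apart. The check of the line against its label was mixed. The summed level of 6 epithelial genes was 6402 to 6528 CPM in DMSO, and CDKN2A, a tumour suppressor gene that A549 has lost, had no count in any of the 6 libraries. MTAP, the gene beside it that is often lost with it, was not at 0. It had 7.67 to 9.08 CPM in the DMSO libraries and lay within that range in GSK591.

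PRMT5 places symmetric dimethylarginine on proteins, together with its partner WDR77. Its known substrates include some of the Sm proteins, which form a ring on the small nuclear RNAs of the spliceosome, and the tails of histones. The ring is loaded by the SMN complex, and splicing of nearly all human genes depends on the particles that result. Through the splicing of long transcripts such as that of MDM4, whose product restrains p53, PRMT5 has been linked to the p53 pathway and to cell division.

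Levels below are CPM, the usual scaling of read counts to library size, after TMM correction, with the SD over 3 libraries where a mean is given. Changes are log2 values fitted by edgeR with their standard error, GSK591 relative to DMSO. A gene is called where its adjusted p (edgeR's quasi-likelihood test, Benjamini-Hochberg over all 18292 genes) is under 0.05. Of the genes tested, 62.6% were called, 30.1% higher and 32.4% lower in GSK591, and in 65.6% the 3 GSK591 libraries did not overlap with the 3 DMSO libraries. With scaling by total counts the split was 6286 higher and 5027 lower. In the authors' FPKM tables, tested with limma, it was 2793 higher and 5253 lower of 13593 genes. Many of the differences were small: 3786 of the called genes (33.1%) differed by less than 1.25-fold. At least 2-fold differences were found in 2157 genes, 1666 higher (9.11% of those tested) and 491 lower (2.68%). Most of the large increases belonged to genes of low level, as the plot of change by level shows. Among 9868 genes with a mean of at least 10 CPM the split was nearly even, with 216 up and 209 down 2-fold or more. For 20 identifiers of the 18292, the mitochondrial rRNA genes MT-RNR1 and MT-RNR2 and the ribosomal RNA pseudogene RNA5-8SP6 among them, GSK591 replicate 3 was at least 5 times the other GSK591 libraries. These 20 held 2.51% of that library and at most 0.132% of any other of the 6. Of them 12 were called higher, which rests on that library, and none is described further.

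**Figure D1:**
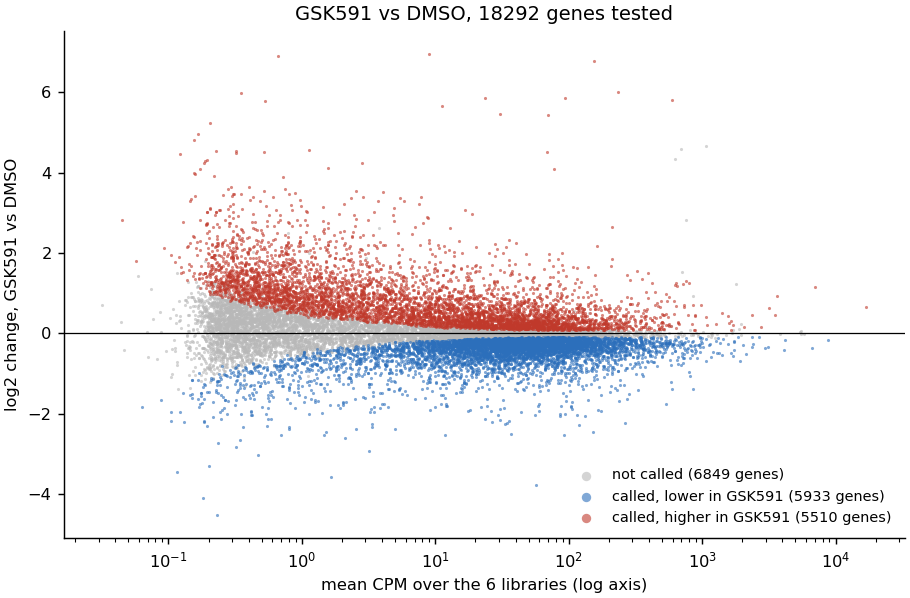
Log2 change between GSK591 and DMSO (vertical axis) against the mean CPM over the 6 libraries (horizontal log axis), 1 point per gene tested, coloured by call. The 5510 genes called higher spread widest at low levels, the 5933 called lower are dense at high levels, and the few points above log2 4 with over 50 CPM are among the 20 identifiers that rest on GSK591 replicate 3.

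Over protein-coding genes sorted by level into 5 equal bins, the share called higher went from 43.0% in the lowest bin to 22.5% in the highest, and the share called lower from 9.26% to 55.8%. The median log2 change went from 0.48 in the lowest bin to -0.14 in the highest. Exon number moved with the direction as well. Among genes of at least 100 CPM, 34.4% of the genes with 22 or more exons were higher and 43.0% lower, whereas of those with 6 or fewer exons 16.1% were higher and 66.7% lower. Within this band of levels, genes with many exons were thus more often higher; the difference was not tested.

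Among identifiers with a symbol the largest gain in CPM was that of MIR663A, at 13746, 12556 and 13441 CPM in DMSO and 20211, 21585 and 20611 CPM in GSK591, over an interval far longer than a microRNA (hg19 chromosome 20, 26167556 to 26232162). Which RNA gave these reads was not resolved, and they are not read as a change of the microRNA. The next largest gain was that of MALAT1 (ENSG00000251562, hg19 chromosome 11, 65265233 to 65273940), a long non-coding RNA that stays in the nucleus. Its level was 3635, 4009.9 and 5333 CPM in DMSO and 9252, 10534 and 9065 CPM in GSK591 (log2 1.15 ± 0.10, adjusted p = 1.16e-07). Every GSK591 library lay above every DMSO library for both. All lincRNA genes together, MALAT1 included, held 0.503% to 0.718% of counts in DMSO and 1.12% to 1.33% in GSK591. Other large gains in CPM were those of TXNRD1, the cytosolic thioredoxin reductase (0.64 ± 0.02), KRT8, a keratin of simple epithelia (0.45 ± 0.02), AKR1B1, the aldose reductase (1.25 ± 0.03), MAP1B, a microtubule-binding protein (1.22 ± 0.05), and ACTN4, an actin crosslinker (0.52 ± 0.05). The largest losses in CPM included GAPDH of glycolysis (-0.40 ± 0.03), IGFBP4, which binds insulin-like growth factors (-0.68 ± 0.04), TOP2A, the topoisomerase of dividing cells (-1.39 ± 0.04), PGD of the pentose phosphate pathway (-0.57 ± 0.03) and HIST1H1C, a linker histone (-1.75 ± 0.06). Beside these, ANKRD30BL, MIR663A and an identifier without a symbol, ENSG00000207985, together held 1.41% to 1.74% of counts in DMSO and 2.64% to 2.82% in GSK591. Their part in the balance of higher and lower calls was not tested.

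The small nuclear RNAs stood out among gene types. Of 59 snRNA genes tested, 49.2% were called higher and 3.39% lower, with a median log2 change of 0.76, against 31.1% and 38.5% and a median of -0.03 for 14202 protein-coding genes. These genes were singled out after their values had been seen. Their counts were low, so each is given by its counts. In the lowest bin of level, 43.0% of protein-coding genes were higher and 9.26% lower, with a median of 0.48. The snRNA genes were not compared with genes of like level. RNU1-1 (ENSG00000206652, hg19 chromosome 1, 16840617 to 16840780), a gene for the U1 RNA that recognises the 5′ splice site, had 84 counts summed over DMSO and 519 over GSK591 (log2 2.67 ± 0.19, adjusted p = 2.14e-08). RNU5B-1, a gene for the U5 RNA that holds the exons together during splicing, had 26 counts summed over DMSO and 173 over GSK591 (log2 2.75 ± 0.31, adjusted p = 1.87e-06). RNU4-1 and RNU4-2, the genes for the U4 RNA, changed by 2.05 ± 0.28 and 1.72 ± 0.23.

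By class, all 9 U1 genes, 6 of 7 U5 genes, 3 of 4 U4 genes and 2 of 4 U2 genes rose. U1, U2, U4 and U5 RNAs carry a ring of Sm proteins. The exceptions were the pseudogene RNU4-23P, which fell, and RNU2-22P, RNU2-27P and RNU5E-4P, which did not pass. Pseudogene names were carried by 3 of the U1, 2 of the U5, 2 of the U4 and all 4 of the U2 genes. All 13 genes of these classes without such names rose, and none of them is a U2 gene. Of 31 genes named for U6, whose RNA carries a ring of LSm proteins instead, 8 rose and none fell. Most of these U6 genes, 27 of the 31, had pseudogene names. Summed over the genes tested, U1 counts came to 4.75, 4.81 and 4.54 CPM in DMSO and 17.0, 16.8 and 19.3 CPM in GSK591, and U5 counts to 1.44, 1.71 and 1.73 CPM against 7.64, 7.95 and 8.15 CPM. U6 counts came to 11.3, 11.9 and 11.95 CPM in DMSO and 14.8, 15.4 and 15.5 CPM in GSK591. No GSK591 library overlapped with a DMSO library in any of these 3 sums. In MS023 the U1 sums were 9.37, 8.41 and 8.93 CPM and the U5 sums 3.41, 3.28 and 3.20 CPM, between the other groups. The U2 sums of the inhibitors overlapped, at 8.67, 7.64 and 6.43 CPM in GSK591 and 6.34, 7.73 and 7.43 CPM in MS023, against 3.75, 4.05 and 3.07 CPM in DMSO. The median log2 change of the 4 U2 genes against DMSO was 0.43 in GSK591 and 1.03 in MS023. Of the 24 genes of classes U1, U2, U4 and U5, 17 were higher in GSK591 than in MS023 and 2 lower, where 31.7% of all genes tested were higher and 33.6% lower. Copies of these genes are nearly identical, so counts may be shared among them, and reads that run past the end of an snRNA were not told apart from mature snRNA. Without GSK591 replicate 3 and DMSO replicate 1, 20 of the 24 genes were called higher, the same count as with them. With a filter of 1 CPM 15 were called higher, since fewer were tested, and in the FPKM tables only 1 was, with RNU4-1 of the other sign there without a filter (-1.82).

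**Figure D2:**
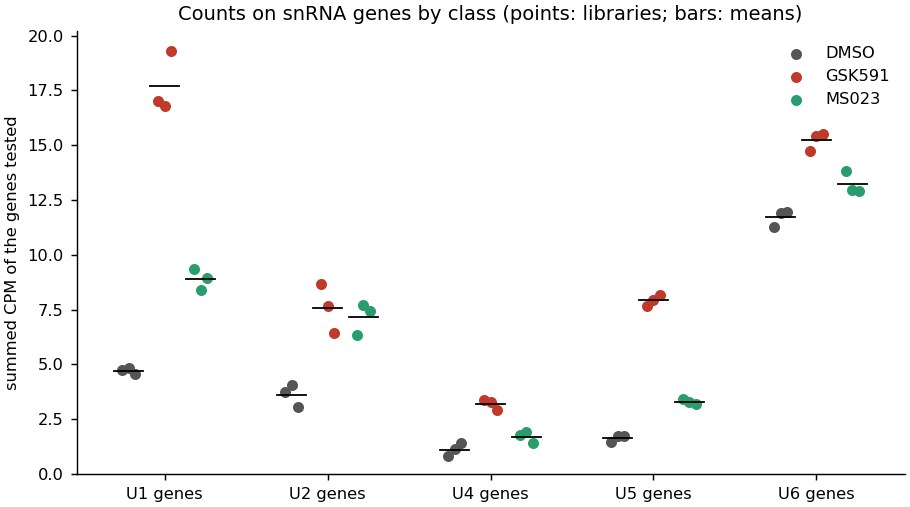
Summed CPM (vertical axis, from 0) of the snRNA genes tested, by class, in each library of DMSO, GSK591 and MS023 (points) with the mean of 3 libraries (bars). The U1 sums of GSK591 lie between 16.8 and 19.3 CPM, above those of MS023 and DMSO, the U2 sums of GSK591 and MS023 overlap, and the U6 sums of the groups lie closer together.

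In the p53 pathway the negative regulators split. MDM2 (ENSG00000135679, hg19 chromosome 12, 69201956 to 69239214), which marks p53 for degradation and is also its target, stood at 198, 207 and 200.5 CPM in DMSO and 484, 543 and 512 CPM in GSK591 (log2 1.34 ± 0.05, adjusted p = 8.53e-12). MDM4, which blocks p53's activation domain, stood at 72.5, 74.4 and 76.8 CPM in DMSO and 55.8, 58.9 and 56.9 CPM in GSK591 (log2 -0.38 ± 0.04, adjusted p = 5.27e-07). No library of one group reached into the other for either gene. With limma on the FPKM tables MDM4 was not called (-0.18, adjusted p = 0.104). RFWD2, another ubiquitin ligase of p53, fell by a small amount (-0.30 ± 0.04), and PPM1D, the phosphatase that ends p53 signalling, rose (0.34 ± 0.04), as did CCNG1, a cyclin induced by p53 (0.59 ± 0.05). The relative TP63 rose (0.81 ± 0.06), and TP73 (0.39 ± 0.20, adjusted p = 0.0966) and the ligase RCHY1 (0.15 ± 0.07, adjusted p = 0.0767) did not pass.

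Targets of p53 that act in cell cycle arrest were higher in 14 of 21 tested and lower in 5 (median 1.10, where the median over all genes tested was 0.01). For this list and that of cell death, the shares over all genes tested were 30.1% higher and 32.4% lower. CDKN1A (ENSG00000124762, hg19 chromosome 6, 36644305 to 36655116), the inhibitor p21 of cyclin-dependent kinases, had a level of 62.2, 58.2 and 55.1 CPM in DMSO and 266, 267 and 264 CPM in GSK591. Its 3 treated libraries lay within a few CPM of each other, far above the controls. PLK2, a kinase induced by stress, stood at 147, 149.5 and 146 CPM in DMSO and 388, 422 and 398 CPM in GSK591 (log2 1.45 ± 0.04, adjusted p = 2.01e-12). BTG2, an antiproliferative factor (1.51 ± 0.07), GADD45A, which acts in the G2 checkpoint (1.39 ± 0.07), SESN1 (1.34 ± 0.06), which restrains mTOR, and ZMAT3, an RNA-binding protein (1.20 ± 0.05), rose by a like amount. The 5 that fell were BTG1 (-0.94 ± 0.04), PTP4A1, KLF4, TP53I11 and ZNF385A. Among targets that act in cell death, 19 of 21 rose and 1 fell (median 0.64). FAS, a death receptor, stood at 13.1, 13 and 12.5 CPM in DMSO and 47.6, 54.8 and 51.6 CPM in GSK591 (log2 1.999 ± 0.06, adjusted p = 1.75e-12) and led them, and PHLDA3, an inhibitor of AKT (1.28 ± 0.04), TP53I3, an oxidoreductase (1.26 ± 0.04), DRAM1 of autophagy (1.10 ± 0.05) and BAX, which opens the mitochondrial membrane (0.83 ± 0.04), followed. BBC3, the death protein PUMA, rose by less (0.47 ± 0.09), and PMAIP1, known as NOXA, did not pass (0.12 ± 0.06, adjusted p = 0.0983). SIVA1 fell (-0.46 ± 0.05).

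Targets of p53 in DNA repair and metabolism were higher in 18 of 23 and lower in 2 (median 0.61). Over all genes tested 30.1% were higher and 32.4% lower. CYFIP2, an actin regulator, rose from 41.7 ± 1.81 to 135 ± 1.79 CPM (1.70 ± 0.05), EDA2R, a receptor of the tumour necrosis factor family, by 1.54 ± 0.05, and POLH, the polymerase that bypasses ultraviolet lesions, by 0.97 ± 0.05. DDB2 and XPC, which find damaged bases, rose by 0.72 ± 0.05 and 0.32 ± 0.04. RRM2B, the p53-induced subunit of ribonucleotide reductase, rose (0.61 ± 0.04), whereas RRM2, the subunit made in S phase, fell (-1.35 ± 0.04). CPT1C and FUCA1 were the 2 members that fell (-0.68 ± 0.14 and -0.35 ± 0.05). All these lists are textbook sets chosen with earlier results of these data known.

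Genes that govern the step from G1 to S moved in both directions, 6 of 18 higher and 11 lower. Over all genes tested the shares were 30.1% higher and 32.4% lower. The D cyclins, which start the step, were higher: CCND1 stood at 332, 347 and 341 CPM in DMSO and 569.6, 582 and 566 CPM in GSK591 (log2 0.75 ± 0.03, adjusted p = 1.55e-10), CCND3 rose by 0.59 ± 0.04, and CCND2, nearly absent in DMSO, rose as well (11 counts summed over DMSO and 261 over GSK591). Cyclin E1 (CCNE1) rose (0.60 ± 0.05) and cyclin E2 (CCNE2) fell (-0.32 ± 0.08). The kinase CDK6, a partner of the D cyclins, rose (0.31 ± 0.04), CDK2, the partner of cyclins E and A, fell (-0.88 ± 0.04), and CDK4 changed by -0.16 ± 0.04, a call lost with total-count scaling (-0.10) and in the FPKM tables, where it was 0.02. Of the inhibitors of these kinases, CDKN1A rose, while CDKN1B, which codes for p27, fell (-0.56 ± 0.04), as did the INK4 family members CDKN2C (-1.17 ± 0.06) and CDKN2D (-0.94 ± 0.17). CDKN1C did not pass (-0.33 ± 0.19, adjusted p = 0.149). CCNA2 (-1.15 ± 0.04), CKS1B (-1.01 ± 0.04), CKS2 (-0.60 ± 0.05), CDC25A (-0.58 ± 0.05) and SKP2 (-0.43 ± 0.04), all of which push the cycle forward, fell.

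The E2F factors, RB proteins and the DREAM and MuvB complex, which switch cell cycle genes on and off, were lower in 15 of 19 genes. Among all genes tested 32.4% were lower. Activating factors fell: E2F1 stood at 42.3, 42.8 and 44.4 CPM in DMSO and 27.5, 27.1 and 27.8 CPM in GSK591 (log2 -0.65 ± 0.04, adjusted p = 2.04e-09) and E2F2 changed by -0.97 ± 0.07. MYBL2, the B-Myb factor of the mitotic programme, stood at 123, 119 and 122 CPM in DMSO and 59.7, 51.3 and 52.7 CPM in GSK591 (log2 -1.15 ± 0.05, adjusted p = 6.49e-11), and FOXM1, which acts with it, changed by -0.78 ± 0.05. In each of these genes the GSK591 libraries lay below the DMSO libraries. The repressors E2F8 (-1.39 ± 0.07) and E2F7 (-0.33 ± 0.05) fell too, as did RBL1 (-0.67 ± 0.04), RBL2 (-0.45 ± 0.03) and RB1 (-0.32 ± 0.05). The MuvB members LIN9 (-0.90 ± 0.06), LIN52 (-0.60 ± 0.06) and LIN54 (-0.29 ± 0.05) and the partners TFDP1 (-0.27 ± 0.03) and TFDP2 (-0.16 ± 0.04) fell. MYBL1, a relative of MYBL2, alone rose (0.51 ± 0.08). E2F4 (0.13 ± 0.05), E2F5 (-0.15 ± 0.06) and E2F6 (-0.10 ± 0.06) did not pass, with adjusted p of 0.0511, 0.0641 and 0.161, though E2F4 passed as higher in several alternatives (0.12 to 0.22). The small change of E2F3 (-0.09 ± 0.04) lost its call in most alternatives, and that of E2F7 in the FPKM tables (-0.19).

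The machinery of DNA replication was lower in 49 of 52 genes and higher in 1 (median -0.67). For this, the nucleotide and the one-carbon list, the shares over all genes tested were 32.4% lower and 30.1% higher. GINS4 of the replicative helicase stood at 52.5, 59.1 and 59.7 CPM in DMSO and 25.8, 22.5 and 24.6 CPM in GSK591 (log2 -1.24 ± 0.06, adjusted p = 2.47e-10), and its partners CDC45 and MCM7 changed by -1.09 ± 0.06 and -0.83 ± 0.04. Both groups were clear of each other in all 3 genes. ORC1, which marks origins (-1.09 ± 0.05), POLA1, the catalytic subunit of the priming polymerase (-0.95 ± 0.04), RFC5 of the clamp loader (-0.91 ± 0.04) and TIMELESS, which steadies forks (-1.10 ± 0.04), fell by about as much. POLE, the leading-strand polymerase, did not pass (-0.06 ± 0.04, adjusted p = 0.292), nor did ORC5 (-0.05 ± 0.05). The increase of ORC4 was small (0.13 ± 0.04), lost its call without DMSO replicate 3 (0.10) and had the other sign in the FPKM tables (-0.02). Of 28 genes that supply nucleotides, 21 fell and 2 rose (4 with total-count scaling). Among the decreases were those of RRM2 and of other genes for deoxynucleotides, thymidine kinase TK1 (-0.98 ± 0.04) and deoxycytidine kinase DCK (-0.90 ± 0.05), while NME1 (0.24 ± 0.04) and CTPS1 (0.16 ± 0.03) rose. Serine and one-carbon genes, which feed this synthesis, fell in 17 of 21 and rose in 3. CTH (-1.52 ± 0.10) and CBS (-1.21 ± 0.07), which convert homocysteine to cysteine, and PHGDH, the entry to serine synthesis (-0.75 ± 0.06), fell most. MAT2A, which makes the methyl donor S-adenosylmethionine, rose (0.33 ± 0.04), as did the folate dehydrogenase ALDH1L1 from about 1 CPM (1.58 ± 0.19).

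Genes of mitosis were lower nearly throughout, where 32.4% of all genes tested were lower. All 32 mitotic kinases, cyclins and APC/C genes, all 27 kinesins and spindle genes, 36 of 38 kinetochore and centromere genes and 20 of 23 condensin and cohesin genes fell, and none of these rose, except that 1 kinetochore and 2 condensin or cohesin genes were called higher with total-count scaling. CCNB2 (ENSG00000157456, hg19 chromosome 15, 59397277 to 59417244), a mitotic cyclin, stood at 111, 123 and 116 CPM in DMSO and 51.3, 48 and 50.5 CPM in GSK591 (log2 -1.23 ± 0.04, adjusted p = 8.71e-12). PLK1, the kinase that drives entry into mitosis, stood at 135, 121 and 125 CPM in DMSO and 85.3, 76.2 and 84 CPM in GSK591 (log2 -0.63 ± 0.05, adjusted p = 4.86e-08). Neither gene's groups overlapped. Decreases within the kinetochore list were uneven. CENPH, an inner kinetochore protein, fell most and stood at 44.4, 49.6 and 47.9 CPM in DMSO and 12.2, 10.7 and 11.9 CPM in GSK591 (log2 -2.03 ± 0.06, adjusted p = 2.59e-12). Of the others, SPC24 (-1.52 ± 0.07), SPC25 (-1.36 ± 0.06) and NUF2 (-0.98 ± 0.05), which hold microtubules, and CENPA, the histone of centromeres (-1.38 ± 0.06), fell by about 2-fold or more. CENPC changed by -0.31 ± 0.07, and ZW10 (-0.10 ± 0.05) and CENPT (0.17 ± 0.07) did not pass. KIF20A (-1.30 ± 0.04) and DLGAP5 (-1.16 ± 0.04) led the spindle genes. Of the condensin subunits, NCAPG2 (-1.22 ± 0.03) and NCAPH (-1.04 ± 0.04) fell, as did the cohesin subunits SMC3 (-0.56 ± 0.04) and SMC1A (-0.36 ± 0.04), and the cohesin loader NIPBL did not pass (-0.04 ± 0.03).

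Promoters of these genes share letters that the comparison did not use. RefSeq promoters (GRCh38.p14, 250 bases before to 50 after a start, the first start listed per gene) matched 12396 of the genes tested by symbol. TTTGAA, the core of the cell cycle homology region bound by the MuvB complex, was looked for on both strands. It was present in 47 of 82 promoters of the kinase, kinetochore and spindle lists (57.3%), in 10.3% of the promoters of all genes tested and in 15.4% of the 27305 promoters in the table. CCAAT, the site of NF-Y, was present in 70.7% of the 82, against 36.2% and 35.7%. The 250 bases before the start are shown for 3 genes that fell, a cyclin, a kinase and a centromere protein, with TTTGAA and CCAAT (on either strand, so also ATTGG) in capitals, each read 5′ to 3′ along its gene. They lie at chr15:59104896-59105145 (plus strand), chr16:23678639-23678888 (plus strand) and chr2:26785806-26786055 (plus strand).
CCNB2: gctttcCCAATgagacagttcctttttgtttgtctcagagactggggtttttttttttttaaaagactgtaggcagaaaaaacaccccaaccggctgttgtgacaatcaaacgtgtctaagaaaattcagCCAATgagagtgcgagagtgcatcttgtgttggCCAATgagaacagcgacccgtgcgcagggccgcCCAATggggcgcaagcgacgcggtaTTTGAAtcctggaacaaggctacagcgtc
PLK1: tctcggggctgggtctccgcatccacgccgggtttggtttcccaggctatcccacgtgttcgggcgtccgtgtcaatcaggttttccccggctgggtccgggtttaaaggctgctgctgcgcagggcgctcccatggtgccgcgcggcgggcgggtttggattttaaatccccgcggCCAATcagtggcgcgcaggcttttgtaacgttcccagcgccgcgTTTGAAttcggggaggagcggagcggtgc
CENPA: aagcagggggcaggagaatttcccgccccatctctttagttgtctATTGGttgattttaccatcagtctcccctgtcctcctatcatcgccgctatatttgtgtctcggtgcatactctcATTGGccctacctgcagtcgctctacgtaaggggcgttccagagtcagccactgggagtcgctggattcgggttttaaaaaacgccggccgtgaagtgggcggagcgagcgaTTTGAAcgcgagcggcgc

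In these 3 promoters TTTGAA starts 29, 29 and 18 bases before the start of transcription, and in CCNB2 CCAAT starts 54, 87 and 120 bases before it as well as at 244. For the replication machinery other letters were frequent. TTCCCGC, a form of the E2F site, was present in 39.1% of 46 matched promoters against 9.66% of those of all genes tested and 6.56% of the table. TTTGGCGC or TTTCGCGC, the full E2F sites, was present in 26.1% against 1.90% and 1.18%, and TTTGAA in only 2 of the 46. CCAAT was present in 56.5% of the 46, against 36.2% of the promoters of all genes tested. The same window is shown for a helicase subunit and the priming polymerase, with both kinds of E2F site in capitals on either strand. These promoters lie at chr7:100101398-100101647 (minus strand) and chrX:24693668-24693917 (plus strand).
MCM7: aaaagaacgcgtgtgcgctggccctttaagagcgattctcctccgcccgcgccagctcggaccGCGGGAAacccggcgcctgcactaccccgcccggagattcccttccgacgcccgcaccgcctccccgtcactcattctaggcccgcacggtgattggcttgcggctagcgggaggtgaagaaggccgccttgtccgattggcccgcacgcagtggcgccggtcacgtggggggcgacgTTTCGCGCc
POLA1: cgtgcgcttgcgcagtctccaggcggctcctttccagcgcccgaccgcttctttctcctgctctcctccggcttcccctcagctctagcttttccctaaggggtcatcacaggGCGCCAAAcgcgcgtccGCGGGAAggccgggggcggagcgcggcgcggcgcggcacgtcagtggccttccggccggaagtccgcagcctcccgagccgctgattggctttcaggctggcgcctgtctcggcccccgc

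Among all genes lower by at least 2-fold, 22.04% of matched promoters held TTTGAA, and among those higher by at least 2-fold 12.3%. The p53 consensus (2 half-sites with up to 13 bases between them) was found in 4 of the 12396 promoters and in none of the 16, 16 and 18 matched promoters of the p53 lists. It was present in 3 of the 966 matched promoters of genes higher by at least 2-fold. Of the 313 of genes lower by at least 2-fold, none held it. These small counts were not tested. A match is a description of letters in this window, and no match says only that these letters are not in it.

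The replication-dependent histone genes that were tested, 58 in all, fell without exception in each of the 5 types. Among all genes tested 32.4% fell. Single copies are uncertain because reads of near-identical genes can be shared. Members with too few counts to be tested went both ways. HIST1H2AE had 26 counts summed over DMSO and 4 over GSK591, and HIST1H3G had 13 and 23. The medians were -2.13 for 5 linker histone H1 genes, -1.77 for 12 H2A, -1.52 for 16 H2B, -1.81 for 12 H3 and -1.39 for 13 H4 genes. That of the H1 genes is the value of HIST1H1T, with only 51 counts summed over DMSO and 11 over GSK591. HIST1H1B (ENSG00000184357, hg19 chromosome 6, 27834570 to 27835359) stood at 186, 211 and 199 CPM in DMSO and 44.2, 38.2 and 41.2 CPM in GSK591 (log2 -2.27 ± 0.06, adjusted p = 1.47e-12). HIST1H1E, the H1 gene with the smallest decrease, stood at 491, 483 and 472 CPM in DMSO and 207, 172 and 168 CPM in GSK591 (log2 -1.40 ± 0.06, adjusted p = 1.12e-10). HIST1H2BJ changed by -1.81 ± 0.08, HIST1H3J by -2.05 ± 0.07 and HIST1H4I by -2.17 ± 0.12. Groups did not overlap in any of these 5 genes. HIST1H2BK (-0.90 ± 0.06), HIST1H3E (-0.64 ± 0.11) and HIST4H4 (-0.85 ± 0.08) were among those that fell by less than 2-fold. Genes of histone variants, such as H2A.Z and H3.3, fell in 10 of 10, by a smaller median of -0.72. H2AFZ, which codes for H2A.Z, stood at 244, 324 and 314 CPM in DMSO and 118, 116 and 124 CPM in GSK591 (log2 -1.30 ± 0.10, adjusted p = 2.92e-08), H2AFX changed by -0.99 ± 0.04, and H3F3B, 1 of the genes for H3.3, by -0.30 ± 0.04.

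Processing factors for histone transcripts moved less, with 9 of 16 lower and 2 higher (median -0.18). Over all genes tested 32.4% were lower and 30.1% higher. SLBP, which binds the stem-loop at the end of histone transcripts (-0.46 ± 0.05), NPAT, the coactivator of histone genes (-0.38 ± 0.06), and LSM11 of the U7 particle (-0.39 ± 0.06) fell, and UPF1, which takes part in their decay, rose (0.37 ± 0.04). ATTTGCAT, the octamer site of OCT1, was present in 5 of 9 matched H2B promoters and 4 of 6 H2A promoters, against 1.39% of the promoters of all genes tested and 1.80% of the table. It is shown in capitals for 2 H2B genes, at chr6:27132796-27133045 (minus strand) and chr1:149886683-149886932 (minus strand).
HIST1H2BJ: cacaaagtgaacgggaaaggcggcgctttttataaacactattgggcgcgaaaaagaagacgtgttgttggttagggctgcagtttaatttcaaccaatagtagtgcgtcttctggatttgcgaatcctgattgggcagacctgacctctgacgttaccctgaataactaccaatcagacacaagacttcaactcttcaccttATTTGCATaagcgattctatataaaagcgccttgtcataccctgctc
HIST2H2BE: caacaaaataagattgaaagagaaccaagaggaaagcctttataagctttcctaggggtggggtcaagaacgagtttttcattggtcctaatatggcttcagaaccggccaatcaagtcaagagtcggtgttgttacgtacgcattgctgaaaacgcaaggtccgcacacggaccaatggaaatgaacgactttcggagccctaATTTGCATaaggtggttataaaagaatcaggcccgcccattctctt

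**Figure D3:**
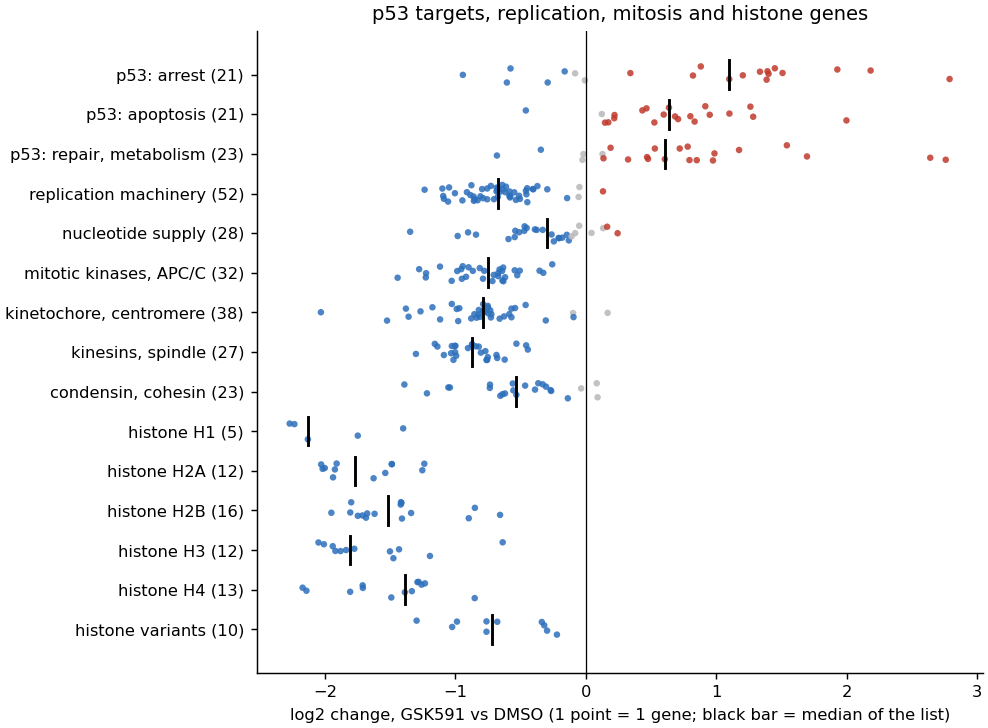
Log2 change between GSK591 and DMSO (horizontal axis) of each gene (points, red for called higher, blue for called lower, grey for not called) in lists of p53 targets, replication, mitosis and histones, with the number tested in brackets and the median as a bar. The medians run from -2.13 for histone H1 to 1.10 for p53 targets in arrest.

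The genes for the Sm ring, of whose proteins only some are substrates of PRMT5, fell in 6 of 8. Beside this and the other lists of this paragraph, 32.4% of all genes tested fell and 30.1% rose. SNRPB, a gene for SmB, stood at 262, 304 and 291 CPM in DMSO and 181, 171 and 193 CPM in GSK591 (log2 -0.65 ± 0.06, adjusted p = 2.78e-07), with no overlap. SNRPG (-0.70 ± 0.09), SNRPF (-0.60 ± 0.06), SNRPE (-0.54 ± 0.09) and SNRPD1 (-0.44 ± 0.08) fell by a like amount. The decrease of SNRPD2 was smaller (-0.18 ± 0.05), its groups overlapped, and its call was lost without DMSO replicate 2 (-0.12). SNRPD3 (-0.12 ± 0.10, adjusted p = 0.291) and SNRPN (0.24 ± 0.18, adjusted p = 0.267) did not pass, and SNRPN was called lower in the FPKM tables (-0.39). Genes for assembly of the particles fell in 14 of 24 (8 with total-count scaling) and rose in 2. In the highest of the 5 bins of level, 55.8% of protein-coding genes were lower and 22.5% higher. The lists of this paragraph were not compared with genes of like level. PRMT5 did not pass, at 84.7, 78.4 and 75.7 CPM in DMSO and 83, 78.5 and 81 CPM in GSK591 (log2 0.02 ± 0.05, adjusted p = 0.7), while GEMIN4 of the SMN complex (-0.54 ± 0.03), SNUPN, the import adaptor of the particles (-0.46 ± 0.05), and LSM4, also a methylated protein (-0.55 ± 0.04), fell. SMN1 changed by -0.26 ± 0.07, and its near copy SMN2 did not pass (-0.15 ± 0.11). PHAX, which exports snRNA (-0.01 ± 0.04), and TGS1, which caps it (-0.01 ± 0.05), did not pass. USPL1 (0.31 ± 0.04) and KIAA0947, also known as ICE1 (0.18 ± 0.04), rose, and both are known to act in snRNA transcription. Regulators of splicing of the SR and CLK families moved both ways, 12 of 29 higher and 7 lower, with CCNL2, a cyclin of splicing speckles, at 48.8, 47.6 and 56.2 CPM in DMSO and 116, 124 and 121 CPM in GSK591 (log2 1.24 ± 0.06, adjusted p = 1.69e-10) and SRSF3 lower (-0.44 ± 0.04).

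Products typical of secretory airway and gut epithelium fell as a rule. Of 29 secretory and mucous genes tested, 21 fell and 6 rose (median -1.44), 18 of the decreases by at least 2-fold. Over all genes tested 32.4% fell, 2.68% by at least 2-fold, and 30.1% rose. The gel-forming mucin MUC5AC (ENSG00000215182, hg19 chromosome 11, 1151580 to 1162361) stood at 56.4, 42.6 and 65.3 CPM in DMSO and 12.5, 11.3 and 10.7 CPM in GSK591 (log2 -2.25 ± 0.12, adjusted p = 8.01e-10). MUC5B, the other airway mucin, stood at 44.3, 28.7 and 40.4 CPM in DMSO and 12.5, 9.71 and 10.5 CPM in GSK591 (log2 -1.79 ± 0.13, adjusted p = 1.80e-08). AGR2, which folds mucins in the endoplasmic reticulum, stood at 849, 903 and 836 CPM in DMSO and 339.5, 318 and 337 CPM in GSK591 (log2 -1.38 ± 0.06, adjusted p = 7.32e-11). The 3 treated libraries were low and close together in each. The transcription factors of these cells fell with them: SPDEF (-1.84 ± 0.07), FOXA3 (-1.45 ± 0.10), FOXA1 (-1.03 ± 0.04), CREB3L1 (-1.02 ± 0.13) and, by less, FOXA2 (-0.42 ± 0.06). MUC20, a membrane mucin, was the largest exception (1.64 ± 0.30). These genes are ones that earlier results of these data had pointed to.

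Plasma proteins of the kind made in liver, several of which A549 also makes, were split, with 12 of 27 lower and 8 higher. The shares over all genes tested were 32.4% lower and 30.1% higher. The 3 fibrinogen chains fell: FGB stood at 280.3, 259.6 and 232 CPM in DMSO and 51, 42.6 and 46.3 CPM in GSK591 (log2 -2.46 ± 0.07, adjusted p = 2.01e-12), FGG changed by -2.07 ± 0.06 and FGA by -0.66 ± 0.04. The copper oxidase ceruloplasmin (CP) stood at 182, 151 and 141 CPM in DMSO and 29.9, 27.1 and 25.6 CPM in GSK591 (log2 -2.52 ± 0.08, adjusted p = 6.08e-12). GSK591 libraries were the low ones, with no overlap. APOE, a lipid carrier (1.34 ± 0.09), and coagulation factor V (F5, 1.23 ± 0.15) rose. Complement genes went mostly the other way, 14 of 19 higher and 4 lower (median 0.84). In the lowest bin of level, 43.0% of protein-coding genes were higher and 9.26% lower, with a median of 0.48. Complement genes were not compared with genes of like level. C1S and C1R, the proteases that start the classical pathway, rose by 0.84 ± 0.03 and 0.85 ± 0.05, and CFI, which cuts C3b, by 0.92 ± 0.12.

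Structural epithelial genes did not share a direction. Of 10 keratins, 5 rose and 3 fell: KRT19 stood at 60.2, 47.8 and 48.4 CPM in DMSO and 161, 165 and 162 CPM in GSK591 (log2 1.65 ± 0.07, adjusted p = 5.10e-11), KRT80 rose (1.13 ± 0.04), KRT81 fell (-0.68 ± 0.06), KRT86 lost its call in most alternatives (-0.35 ± 0.13), and KRT7 (-0.03 ± 0.02) and KRT18 (0.11 ± 0.05) did not pass, though KRT18 did in several alternatives (0.11 to 0.18). Of 35 junction genes and their regulators, 10 rose and 13 fell, near the shares over all genes tested (30.1% higher and 32.4% lower). The same shares stand beside the keratin counts. CDH1, E-cadherin, rose slightly (0.23 ± 0.03), as did CDH2, N-cadherin (0.21 ± 0.03), and VIM, vimentin, did not pass (-0.02 ± 0.03, adjusted p = 0.621). EPCAM (-1.07 ± 0.09) and CLDN7 (-1.85 ± 0.16) fell, ZEB2 rose (0.66 ± 0.08), and ZEB1 did not pass (-0.06 ± 0.04).

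Receptors and ligands of the EGFR family, which drive growth of epithelium, were higher in 7 of 15 and lower in 4. Over all genes tested 30.1% were higher and 32.4% lower. EGFR (ENSG00000146648, hg19 chromosome 7, 55086714 to 55324313) stood at 169, 162 and 162 CPM in DMSO and 397, 434 and 399 CPM in GSK591 (log2 1.32 ± 0.05, adjusted p = 3.62e-11). ERBB3, its partner that lacks strong kinase activity, stood at 49.8, 46.6 and 47 CPM in DMSO and 12.6, 12.4 and 13.7 CPM in GSK591 (log2 -1.89 ± 0.05, adjusted p = 9.63e-13). ERBB2, the partner that binds no ligand, stood at 144, 135 and 137 CPM in DMSO and 88.8, 85.1 and 88.6 CPM in GSK591 (log2 -0.66 ± 0.04, adjusted p = 2.22e-09). EGFR was high in each treated library and the other receptors low in each. Of the ligands, TGFA (1.93 ± 0.08), HBEGF (1.38 ± 0.15), NRG1 (1.35 ± 0.03) and BTC (1.01 ± 0.12) rose and AREG fell (-0.55 ± 0.11). The feedback inhibitor ERRFI1 fell (-0.57 ± 0.04). Early response genes moved in both directions, 9 of 27 higher and 12 lower, where 30.1% of all genes tested were higher and 32.4% lower. JUN (1.59 ± 0.06) and FOSL1 (1.66 ± 0.05), partners in AP-1, rose, while FOS (-0.73 ± 0.06) and JUND (-0.67 ± 0.09) and the orphan receptors NR4A1 (-1.65 ± 0.08) and NR4A2 (-1.84 ± 0.08) fell.

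Around the cell, proteases and their inhibitors were higher in 17 of 23 and lower in 3 (median 1.002), 12 of the increases by at least 2-fold. Over all genes tested 30.1% were higher, 9.11% by at least 2-fold, and 32.4% lower. In the lowest bin of level, 43.0% of protein-coding genes were higher and 9.26% lower, with a median of 0.48. Proteases and collagens were not compared with genes of like level. The plasminogen activators PLAU (1.24 ± 0.04) and PLAT (1.45 ± 0.10) rose. So did the gelatinase MMP2 (1.62 ± 0.07) and its inhibitors TIMP2 (0.69 ± 0.04) and TIMP3 (1.002 ± 0.12), and HTRA3, a secreted serine protease, fell (-2.51 ± 0.09). The other decreases, ADAM17 (-0.13 ± 0.04) and MMP15 (-0.16 ± 0.05), lost their calls in some alternatives. Collagens rose in 13 of 25 and fell in 8 (median 0.41), where 30.1% of all genes tested rose and 32.4% fell. COL7A1, of anchoring fibrils, stood at 87.2, 88.7 and 97.3 CPM in DMSO and 324, 349 and 320.2 CPM in GSK591 (log2 1.86 ± 0.05, adjusted p = 1.03e-12), and COL16A1 (2.32 ± 0.10), COL12A1 (1.05 ± 0.05) and the basement membrane chain COL4A1 (0.83 ± 0.05) rose. The fibrillar genes COL1A1 (-0.71 ± 0.08), COL3A1 (-1.02 ± 0.12) and COL5A2 (-0.60 ± 0.03) fell. FBN1, fibrillin, stood at 15.3, 12.2 and 14.3 CPM in DMSO and 59.3, 75.9 and 64.5 CPM in GSK591 (log2 2.26 ± 0.09, adjusted p = 4.47e-11). Of 10 fibroblast and endothelial markers, 6 were tested. THY1 (1.62 ± 0.07), CDH5, LUM and PDGFRA were higher, COL1A1 and COL3A1 lower, and none of the 10 was at 0 in all 6 libraries. Their sums were 21.4 to 23.9 CPM in DMSO and 27.4 to 28.8 CPM in GSK591, and their part in the matrix results was not tested.

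Integrins were split evenly, 7 of 16 higher and 7 lower. Beside this and the other lists of this paragraph, 30.1% of all genes tested were higher and 32.4% lower. Chains that bind TGF-beta or fibronectin, ITGAV (0.66 ± 0.05), ITGB6 (0.99 ± 0.15) and ITGB8 (1.47 ± 0.11), rose, and ITGB1, the common beta chain, fell slightly (-0.29 ± 0.03). The collagen receptor chain ITGA1 fell by more than 2-fold (-1.06 ± 0.06). Of the TGF-beta and BMP genes, 16 of 33 rose and 12 fell. Ligand and receptor TGFB2 (0.78 ± 0.05) and TGFBR2 (0.55 ± 0.04) and the effector SMAD3 (0.70 ± 0.04) rose, while SMAD2 (-0.78 ± 0.04) and the shared SMAD4 (-0.52 ± 0.03) and the BMP target ID1 (-0.78 ± 0.05) fell. YAP pathway genes rose in 12 of 24 and fell in 7. ANKRD1 (ENSG00000148677, hg19 chromosome 10, 92671853 to 92681033), a frequent YAP target, stood at 3.88, 3.51 and 3.37 CPM in DMSO and 28.8, 31.5 and 29.3 CPM in GSK591 (log2 3.07 ± 0.07, adjusted p = 6.93e-13). CTGF (0.48 ± 0.07) and CYR61 (0.56 ± 0.05), the other usual markers, rose by less, AMOTL2 (1.41 ± 0.04) and LATS2 (0.80 ± 0.05), feedback inhibitors, rose, and YAP1 itself fell (-0.30 ± 0.03).

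Cytokines were higher in 17 of 27 and lower in 2. Beside this and the other lists of this paragraph, 30.1% of all genes tested were higher and 32.4% lower. In the lowest of the 5 bins of level, 43.0% of protein-coding genes were higher and 9.26% lower, with a median of 0.48. A comparison of these lists with genes of like level was not made. IL18, of the interleukin 1 family, stood at 54.5, 62 and 58.7 CPM in DMSO and 120.5, 131 and 133 CPM in GSK591 (log2 1.14 ± 0.05, adjusted p = 7.94e-11). CSF1, a growth factor of macrophages, stood at 48.1, 45.3 and 44.8 CPM in DMSO and 88.1, 86.5 and 89.5 CPM in GSK591 (log2 0.93 ± 0.04, adjusted p = 7.57e-11). Groups were clear of each other in both. CCL2 (2.82 ± 0.16) and IL1B (1.78 ± 0.28) rose from below 1 CPM, and IL15 fell (-0.51 ± 0.07). Of 12 leukocyte markers, CD3D, CD3E, MS4A1 and FCGR3A were at 0 in the 6 libraries and PTPRC, the common leukocyte antigen, was at or below 0.0436 CPM. Of the 4 tested, ITGAM (1.31 ± 0.11), CD8A (1.23 ± 0.31) and CD68 (0.36 ± 0.05) were higher. The sum of the list was 26.4 to 27.8 CPM in DMSO and 34.5 to 35.8 CPM in GSK591, and its part in these results was not tested. Immune receptors and ligands were higher in 13 of 25 and lower in 5 (median 0.52). CD44, the hyaluronan receptor, stood at 450.5, 454 and 442 CPM in DMSO and 762, 803 and 779 CPM in GSK591 (log2 0.80 ± 0.04, adjusted p = 2.28e-10), and CD47, which restrains phagocytosis (0.74 ± 0.04), CD70 (2.21 ± 0.11) and VCAM1 (2.31 ± 0.20) rose. CD274, PD-L1, did not pass (-0.23 ± 0.15, adjusted p = 0.198). Of 21 genes of class I antigen presentation, 5 were higher and 10 lower: HLA-C fell (-0.42 ± 0.06), the peptide transporter TAP1 (0.82 ± 0.06) and the regulator NLRC5 (0.89 ± 0.09) rose, and B2M did not pass (0.04 ± 0.06). G protein-coupled receptors were higher in 19 of 29 and lower in 5 (median 0.46). The oxytocin receptor OXTR stood at 3.44, 3.79 and 3.93 CPM in DMSO and 16.8, 18.6 and 16.4 CPM in GSK591 (log2 2.20 ± 0.08, adjusted p = 2.43e-11). GPRC5A (1.04 ± 0.05) and the sphingosine receptor S1PR3 (0.64 ± 0.04) rose, and 2 of the protease-activated receptors, F2R for thrombin (-1.18 ± 0.04) and F2RL1 for trypsin-like proteases (-1.08 ± 0.04), fell, while F2RL2 of the same family rose (0.35 ± 0.04).

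**Figure D4:**
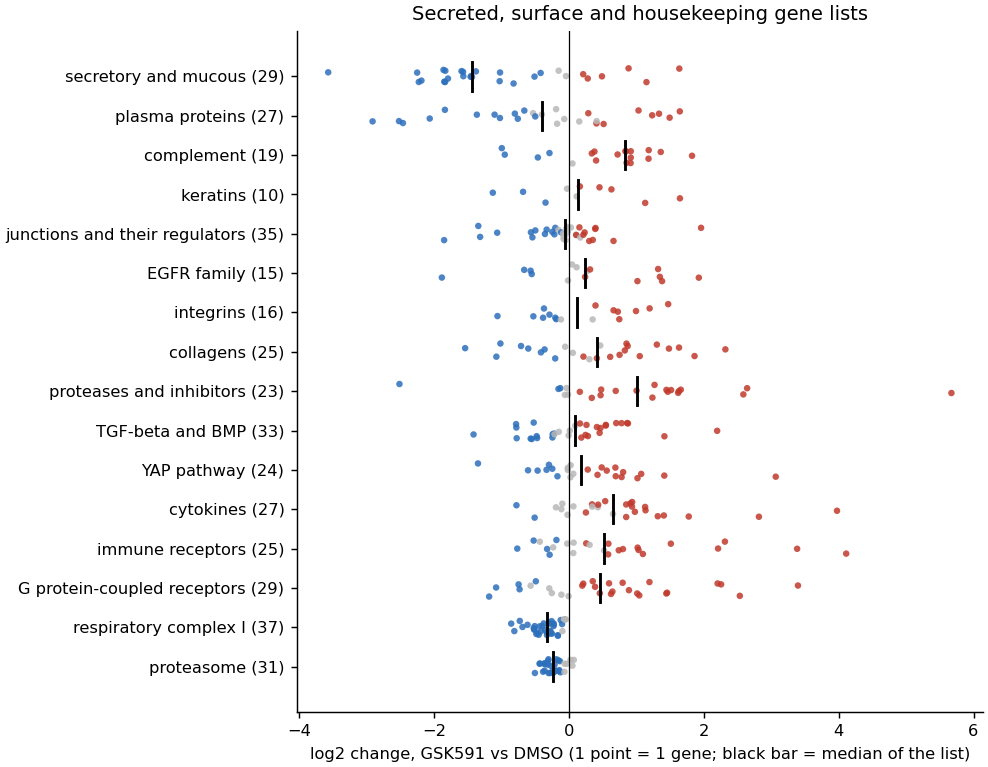
Log2 change between GSK591 and DMSO (horizontal axis) of each gene (points, red for called higher, blue for called lower, grey for not called) in lists of secreted, surface and housekeeping genes, with the number tested in brackets and the median as a bar. Secretory and mucous genes have the lowest median (-1.44) and proteases and inhibitors the highest (1.002).

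Metabolic genes changed in part. Beside each list of this paragraph, 30.1% of all genes tested were higher and 32.4% lower. XDH (ENSG00000158125, hg19 chromosome 2, 31557187 to 31637581), the oxidase that ends purine breakdown in urate, stood at 1.47, 1.28 and 1.36 CPM in DMSO and 14.1, 15.5 and 13.5 CPM in GSK591 (log2 3.40 ± 0.10, adjusted p = 2.62e-12), and the cytosolic nucleotidase NT5C fell (-1.14 ± 0.04). A list of aldehyde dehydrogenases, aldo-keto reductases and cytochromes P450 was higher in 9 of 33 and lower in 15, with AKR1B1 (1.25 ± 0.03) and ALDH1A3 (1.34 ± 0.06) higher and ALDH2 (-0.76 ± 0.04) and AKR1C2 (-0.34 ± 0.02) lower. CYP26A1, which degrades retinoic acid, rose from a low level (0.835 ± 0.183 to 3.72 ± 0.339 CPM, 2.18 ± 0.17). Of the prostaglandin genes, PTGS2, cyclooxygenase 2, and PLA2G4A, the phospholipase that supplies it, fell (-0.99 ± 0.04 and -1.09 ± 0.05), and HPGD, which degrades prostaglandins, rose from 189.7 ± 10.7 to 353 ± 16.8 CPM (0.90 ± 0.05). Iron genes were mixed, 7 of 21 higher and 9 lower. Transferrin (TF, -2.91 ± 0.14) and ceruloplasmin fell most, ferritin heavy chain FTH1 fell (-0.38 ± 0.10), and HMOX1, which breaks down haem (1.27 ± 0.04), and the iron exporter SLC40A1 (0.61 ± 0.03) rose. Nuclear genes of respiratory complex I fell in 33 of 37 and rose in none, by small amounts (median -0.33): NDUFB1 stood at 33.7, 54 and 49.1 CPM in DMSO and 28.2, 23 and 24.7 CPM in GSK591 (log2 -0.86 ± 0.15, adjusted p = 1.91e-04), and NDUFS1, the largest subunit, changed by -0.29 ± 0.03. In the highest of the 5 bins of level, 55.8% of protein-coding genes were lower and 22.5% higher. Complex I was not compared with genes of like level.

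Genes for making and degrading proteins moved by small steps. The proteasome fell in 25 of 31 and rose in none, or 1 with total-count scaling (median -0.23), led by PSMB6 (-0.51 ± 0.04) and PSMC3 (-0.44 ± 0.03). Initiation factors were lower in 16 of 36 and higher in 8, tRNA synthetases lower in 10 of 20 and higher in 3, and ribosome biogenesis genes lower in 18 of 42 (11 with total-count scaling) and higher in 12. Over all genes tested 32.4% were lower and 30.1% higher. In the highest of the 5 bins of level 55.8% of protein-coding genes were lower and 22.5% higher. These lists were not compared with genes of like level. EIF1 (-0.51 ± 0.05) and EIF4E, the cap-binding factor (-0.33 ± 0.04), fell. FBL, fibrillarin, itself a methylated protein of the nucleolus, fell (-0.46 ± 0.04), and NOP2, an rRNA methyltransferase, rose (0.68 ± 0.03). Chaperones fell in 14 of 33 and rose in 7, with the endoplasmic reticulum chaperone HSPA5 at 858, 902 and 860.1 CPM in DMSO and 572, 559 and 574 CPM in GSK591 (log2 -0.62 ± 0.03, adjusted p = 6.73e-10) and HSPB8 higher (1.54 ± 0.05).

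Chromatin modifiers fell in 23 of 47 and rose in 12, none by 2-fold. Beside this and the other lists of this paragraph, 32.4% of all genes tested fell and 30.1% rose. In the highest of the 5 bins of level, 55.8% of protein-coding genes were lower and 22.5% higher. The lists were not compared with genes of like level. The Polycomb methyltransferase EZH2 (-0.43 ± 0.05), its partners SUZ12 (-0.40 ± 0.04) and EED (-0.33 ± 0.04), and HDAC1 (-0.44 ± 0.04) fell, and KMT2D (0.45 ± 0.05) and KAT2A (0.42 ± 0.05), which act at active genes, rose. Lamina, tubulin and HMG genes fell in 21 of 29 and rose in 6. Lamin B1 (LMNB1) stood at 157, 159 and 154 CPM in DMSO and 88.8, 84.9 and 91 CPM in GSK591 (log2 -0.83 ± 0.04, adjusted p = 9.96e-11), and LBR, its receptor (-0.72 ± 0.04), and HMGB1 (-1.05 ± 0.04) and HMGB2 (-1.10 ± 0.04), which bend DNA, fell, whereas LMNA, lamin A and C, rose slightly (0.21 ± 0.03) and SYNE1 rose by 1.58 ± 0.05. Of 23 imprinted genes, 12 rose and 7 fell. IGF2 rose from 3.98 ± 0.234 to 12.6 ± 1.44 CPM (1.66 ± 0.09), and its neighbour H19 fell (-3.78 ± 0.09). MEG3 (1.94 ± 0.09) and NDN (1.16 ± 0.25) rose, and PEG10 (-0.69 ± 0.03) and GNAS (-0.46 ± 0.03) fell. Of 34 Wnt and Notch genes, 10 rose and 14 fell. The receptor NOTCH3 (-1.17 ± 0.07) and the Notch targets HES1 (-1.10 ± 0.05) and HEY1 (-0.99 ± 0.11) and the Wnt target AXIN2 (-0.91 ± 0.05) fell.

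Whether these differences also set GSK591 apart from the other inhibitor was tested directly, between GSK591 and MS023, where plates were seeded alike. Of 18292 genes, 31.7% were higher and 33.6% lower in GSK591 than in MS023. All 32 mitotic kinase genes and all 27 spindle genes were lower in GSK591, as were 34 of 38 kinetochore genes, 48 of 52 replication genes and 57 of 58 replication-dependent histone genes. The p53 targets were higher in GSK591 in 15 of 21 for arrest, 16 of 21 for death and 19 of 23 for repair and metabolism. CDKN1A stood at 54.7, 55.8 and 55 CPM in MS023, below each GSK591 library (log2 2.27 ± 0.04, adjusted p = 1.12e-14). MDM2 stood at 181, 171 and 172 CPM in MS023 (log2 1.55 ± 0.05, adjusted p = 7.30e-13), and CCNB2 at 103, 97.3 and 99.3 CPM in MS023 (log2 -1.002 ± 0.04, adjusted p = 2.75e-11). Secretory and mucous genes were lower in GSK591 than in MS023 in 22 of 29: MUC5B stood at 161, 179.6 and 170.0 CPM in MS023 (log2 -3.97 ± 0.13, adjusted p = 2.76e-12) and FGB, of the plasma proteins, at 455, 443 and 448 CPM in MS023 (log2 -3.27 ± 0.07, adjusted p = 4.14e-14). MS023 itself lay above DMSO in MUC5B (log2 2.17 ± 0.12) and in FGB, and the secretory list had a median of 0.66 in MS023 against DMSO. The gap between the inhibitors thus includes a change in MS023 the other way. For the EGFR family, EGFR stood at 70, 61 and 63.1 CPM in MS023 (log2 2.66 ± 0.05, adjusted p = 1.98e-14) and ERBB3 at 53, 55.3 and 53.2 CPM in MS023 (log2 -2.06 ± 0.05, adjusted p = 6.14e-14). In MS023 against DMSO, EGFR was lower (log2 -1.34 ± 0.05) and ERBB3 differed little (0.17 ± 0.04). MALAT1 stood at 6293, 6024 and 6115 CPM in MS023, below the GSK591 libraries (log2 0.65 ± 0.10, adjusted p = 3.57e-05). The plot of single genes by library shows these levels side by side.

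**Figure D5:**
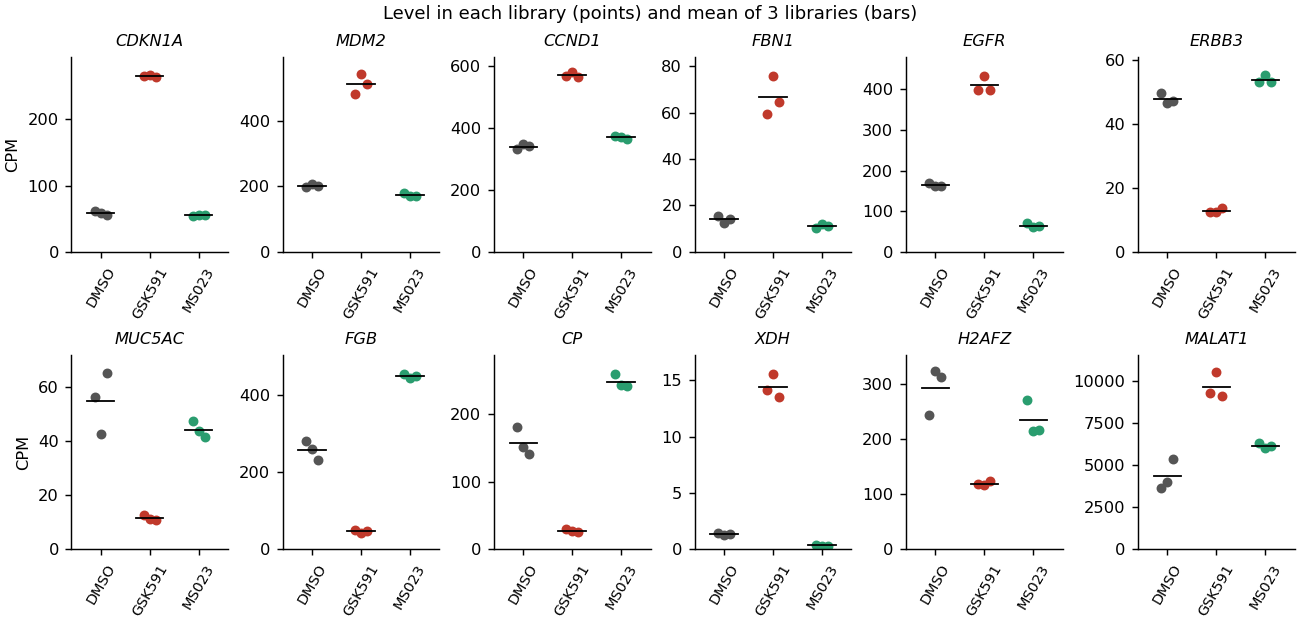
CPM (vertical axes, each from 0) of 12 genes in each library of DMSO, GSK591 and MS023 (points), with the mean of 3 libraries (bars). GSK591 and DMSO points do not overlap in any of the 12 genes, and the GSK591 points of CDKN1A, MDM2 and EGFR lie above those of both other groups.

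For some genes that changed against DMSO the direct test found no difference between the inhibitors. MMP7, matrilysin, rose from 9.53 ± 0.446 to 27.1 ± 1.43 CPM and stood at 25.6 ± 1.63 CPM in MS023 (log2 0.09 ± 0.06, adjusted p = 0.191). SNAI1, a repressor of epithelial genes, fell from 15.4 ± 1.2 to 6.12 ± 0.58 CPM and stood at 5.11 ± 0.791 CPM in MS023 (log2 0.25 ± 0.11, adjusted p = 0.0647), and CCND3 stood at 276 ± 8.58 CPM (log2 -0.07 ± 0.04, adjusted p = 0.189). A difference that did not pass does not show that the inhibitors act alike on these genes.

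Markers of the alveolar type 2 cell, the cell A549 is often taken to model, were nearly absent. Of 7, 3 were tested, NAPSA and LAMP3 were called higher, LAMP3 with an adjusted p in edgeR of 0.0498 that was lost in most alternatives, and the sums were 0.867 to 1.38 CPM in DMSO and 2.75 to 2.89 CPM in GSK591. NAPSA is an aspartic protease of these cells. Of the epithelial markers, CDH1, KRT8 and KRT19 rose and EPCAM fell, and their sum was 7687 to 7952 CPM in GSK591.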

How the data were processed

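RNA of A549 cells was sequenced in 9 libraries, 3 each of DMSO, GSK591 and MS023. The gene counts were deposited by the authors as 1 table of whole numbers; cutadapt, STAR, featureCounts, DESeq2 and the build hg19 are named in the submitters' processing notes, with versions and the strand setting not given in the sources used here. The FPKM values were deposited by the authors as 1 table per library, per the file headers with gene status and locus, and were used for symbols, hg19 positions and an alternative test. Because the strand setting is not stated, overlapping and antisense genes are uncertain, as are near-identical copies.

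Of 51796 identifiers in the count table, 48523 took a symbol from the FPKM tables, 10 from a name table and 3263 kept their identifier. Gene types came from GENCODE 29, matched by identifier for 45025. Genes passing edgeR's filterByExpr (minimum count 10, total 15) were fitted over all 9 libraries with TMM scaling and the quasi-likelihood test in edgeR 4.0.16 (R 4.3.3), as 1 model with contrasts of GSK591 against DMSO and against MS023. The Benjamini-Hochberg adjustment ran over all genes tested, with a threshold of 0.05. Library totals of 31398075 to 47387808 counts set the precision, and no intervals were computed on single libraries. The test was checked on simulated counts before use. Alternatives were other scalings and filters, a fit of 6 libraries, a replicate block, each library left out, DESeq2 1.42.0, glmTreat, and limma 3.58.1 on log2(FPKM + 1) or log2(FPKM + 0.1) of genes with at least 1 FPKM in 3 libraries; leaving out 2 libraries together was chosen after seeing the data.

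Named genes were, by rule, the 12 largest changes each way among called genes of at least 10 CPM whose groups did not overlap, the 10 largest changes of CPM each way, and up to 3 members each way of at least 1 CPM of each of 58 gene lists, with every tested member of the p53 regulator, Sm ring, G1 and E2F lists and members needed to complete a role. Some genes that the rule names are not reported here. Mitochondrial rRNA, small RNAs and genes without a proper name were outside the rule; those named, and other members of the lists, were chosen after their values were seen. The members and lists were chosen with earlier results of these data known, so their counts are descriptions and not independent support.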

Additional observations from a re-analysis of the deposited data

Results flagged for a closer look

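Signal outside the counts used for the comparison was seen in 3 genes that appear in the authors' FPKM tables and not in the count table. They are those of the 9228 such identifiers with at least 1 FPKM in each GSK591 library whose lowest GSK591 value was at least 4 times the highest DMSO value. RP11-674N23.1 was at 4.96, 6.87 and 6.15 FPKM in DMSO and at 45.36, 50.16 and 48.91 FPKM in GSK591. RP11-479G22.8 was at 4.54, 5.48 and 4.71 FPKM in DMSO and at 24.39, 28.81 and 23.21 FPKM in GSK591. ENSG00000267397 was at 0.25, 0.17 and 0.18 FPKM in DMSO and at 1.35, 1.40 and 1.11 FPKM in GSK591. None of the 3 has an official symbol in these tables, and no test was run on them.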

How the results depend on the processing

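The limits are these: replicates may be technical, seeding differed from DMSO, and low counts limit snRNA and marker genes. The count of called genes (11443) was 10588 to 11572 with each library left out, with 5111 to 5690 higher, 5392 to 6016 lower and 2135 to 2443 by at least 2-fold, and 11211 to 12364 genes differed between GSK591 and MS023 (11955 with all). With the replicate number as a block 11145 genes were called, and 1 of the 446 named genes lost its call; same-numbered libraries correlated at r from -0.43 to 0.26, so the numbers were not taken as pairs. With glmTreat, which asks for a change beyond log2 0.5, 3257 genes were called, 2041 higher and 1216 lower, and 4177 against MS023. With limma 2793 genes were higher on log2(FPKM + 1) and 2779 on log2(FPKM + 0.1), and 485 and 923 differed by at least 2-fold, or 479 without a filter. A filter of 1 CPM left 1274 genes at least 2-fold changed, with 14486 tested. Signs turned in the FPKM tables for CDK4 (0.016 in all 3 limma settings), ORC4 (-0.02, and -0.021 with the smaller pseudocount), SNRPN (-0.389, and -0.451 with the smaller pseudocount), and, without a filter, RNU4-1 (-1.815). NDUFA7 came to 0.0 without a filter. The cause was not tested. Of the 446 named genes, 144 were no longer called with glmTreat and 10 at an adjusted p under 0.01. Other count-based settings ended between 0 and 6 calls and added up to 6. With limma 419 of the 446 had a value and 12 calls ended, or 444 and 30 without a filter. Of 118 counts of list members called, 71 moved with glmTreat, 21 with each limma setting and up to 11 with any other setting.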
